A study of Mus musculus with 2 samples.

Results

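Respiratory chain genes, meaning the genes for subunits of complexes I to IV and of the ATP synthase (complex V), were followed in CD45+ leukocytes of brown adipose tissue (BAT). They were taken by gene symbol: Nduf genes with a following a, b, c, s or v and a digit, Sdha to Sdhd, Uqcr genes, Cox4 to Cox8, Atp5 genes, and the protein-coding genes with the mt- prefix, leaving out pseudogenes. This gave 97 of the 32285 genes counted in the libraries. Of these, 84 are encoded in the nucleus, on 19 chromosomes, and 13 in the mitochondrial genome. The nuclear members comprise 35 genes of complex I, 4 of complex II, 8 of complex III, 20 of complex IV and 17 of complex V. The mitochondrial members comprise 7 genes of complex I, 1 of complex III, 3 of complex IV and 2 of complex V. In the text, the nuclear part is the sum of the nuclear members and the mitochondrial part is the sum of the mitochondrial members.

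In the inner mitochondrial membrane, complexes I and II pass electrons from NADH and succinate to ubiquinone, complex III passes them on to cytochrome c, and complex IV passes them to oxygen. Complexes I, III and IV pump protons, and the ATP synthase uses the gradient to make ATP. Complex II, succinate dehydrogenase, is also an enzyme of the tricarboxylic acid cycle and is encoded in the nucleus alone, whereas the other complexes are assembled from subunits of both genomes. Among leukocytes, neutrophils are known for few mitochondria and reliance on glycolysis, and tissue macrophages for a larger oxidative capacity.

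The study asked how loss of adipocyte lipolysis changes the leukocytes of BAT. Both libraries came from 16 week-old male mice on the C57Bl/6 background of the genotype AdipoQ-CreERT2 ATGL fl/fl, in which a Cre under the adiponectin promoter, active in adipocytes, is switched on by tamoxifen. The control library came from vehicle-treated mice and the AdipoΔ/Δ library from tamoxifen-treated mice, so that both carried the Cre and the floxed gene, and tamoxifen itself and loss of ATGL cannot be told apart. The tissue was digested with collagenase and viable CD45+ cells were sorted before droplet capture. How many mice were pooled for a library is not given in the sources used here.

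Each condition had 1 library. The conditions could therefore not be tested against each other, no value has an error between mice, and ratios between libraries compare these libraries, not the conditions. Intervals in parentheses are exact 95% intervals (Poisson for levels, Clopper-Pearson for shares, conditional binomial for ratios) and cover counting error only. Barcodes with at least 200 detected genes were kept, 2529 in the control and 2325 in the AdipoΔ/Δ library, with 11157915 and 11961622 unique molecular identifiers (UMIs, each a counted transcript) and medians of 3353 and 3425 UMIs per barcode. The libraries had 4 barcodes in common. Ptprc, which encodes CD45, had a UMI in 79.8% (78.2 to 81.3) and 77.8% (76.1 to 79.5) of barcodes. Pnpla2, which encodes ATGL, was at 38.3 CPM (34.7 to 42.2) and 43.3 CPM (39.6 to 47.3), which does not check the labels, because this Cre acts in adipocytes and not in leukocytes. The nuclear part and its members are given as counts per 1000000 (CPM) or percent of nuclear-encoded UMIs, and the mitochondrial part and its members as percent or CPM of all UMIs. Since a 3′ tag is counted once per transcript whatever its length, levels of different genes are set side by side without scaling to length. Clusters were made without the members and named from marker genes, and "-like" stands for a match to such markers.

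Over all barcodes, the nuclear part was 19855 CPM (19771 to 19939) in the control and 21210 CPM (21126 to 21294) in the AdipoΔ/Δ library. The mitochondrial part was 2.70% (2.69 to 2.71) and 3.63% (3.62 to 3.64) of all UMIs. Complex V gave the largest nuclear sum, with 6480 and 7040 CPM, followed by complex IV with 5598 and 5962 CPM and complex I with 5498 and 5769 CPM. Complex III gave 1988 and 2088 CPM. Complex II was far lower, with 291 and 352 CPM, and has only 4 genes.

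The most abundant nuclear member was Atp5e, the epsilon subunit of the ATP synthase rotor, on chromosome 2 (174461072 to 174464105 of GRCm38), with 1116 CPM in the control and 1141 CPM in the AdipoΔ/Δ library. Atp5l, a membrane subunit, followed in complex V with 705 and 697 CPM. Cox4i1 and Cox8a, structural subunits of complex IV, were at 808 and 825 CPM and at 773 and 765 CPM. Uqcrh, the hinge protein of complex III, was at 685 and 613 CPM, and Uqcrq, a small subunit of the same complex, at 311 and 328 CPM. In complex I the accessory subunits Ndufa13 and Ndufa3 led, with 358 and 376 CPM and with 390 and 330 CPM. In complex II, Sdhb, the iron-sulfur subunit, was at 87.1 and 104 CPM, and Sdha, the flavoprotein that oxidizes succinate, at 81.8 and 88.7 CPM. Of the 84 nuclear members, 77 had at least 100 UMIs over both libraries and 7 did not.

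The 7 nuclear members under 100 UMIs were all tissue forms of other members. Cox7a1, the complex IV subunit of heart, muscle and brown fat, had 20 UMIs in the control and 71 in the AdipoΔ/Δ library, whereas its relative Cox7a2 had 3631 and 4365 UMIs. Of the Cox7a1 UMIs, 7 and 51 were in macrophage-like cells, where resident cells had 6 and 19 and lipid-associated cells 0 and 25, in 17 barcodes. The 0 in lipid-associated cells of the control library allows up to 98.5 CPM (3 counts), so that a difference from the AdipoΔ/Δ library, at 19.9 CPM, was not detectable at this depth. Cox6a2, a muscle form of Cox6a1, had 6 and 49 UMIs, of which 19 were in 1 B cell-like barcode. Cox8b, the form of Cox8a in muscle and brown fat, had 5 and 18 UMIs. Cox4i2 had 1 and 2 UMIs and Ndufa4l2 1 and 1, and Cox7b2 and Cox8c had 0 in both libraries, which allows up to 0.276 and 0.260 CPM. Cox6b2, known from testis, was more frequent, with 93 UMIs in each library. Its UMIs were mostly in Ly6C high monocyte-like cells, with 58 and 27 (22.4 and 22.1 CPM), and in dendritic cell-like cells, with 12 and 22.

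Transcripts of other cells were counted beside these isoforms. A list of 9 adipocyte genes had 240 and 154 UMIs over all barcodes. In macrophage-like cells it had 41 and 70 UMIs, which is 71.3 and 18.7 CPM of all UMIs, and in the resident subset 41 and 58 UMIs, which is 158 and 58.8 CPM. On the same scale Cox7a1 was at 12.2 and 13.6 CPM in macrophage-like cells, from 7 and 51 UMIs. In lipid-associated cells 0 and 3 of the 9 genes had a UMI, with 0 and 6 UMIs in sum. Ucp1, the uncoupling protein of brown adipocytes, had 2 and 7 UMIs and Adipoq 11 and 3. A list of 5 skeletal muscle genes had 44 and 48 UMIs, and a list of 4 fibroblast genes had 3 and 262 in the resident subset. The part of RNA from these cells in the isoform counts was not tested.

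The 3 genes for subunit c, the proton-carrying ring of the ATP synthase, give an identical mature protein from separate promoters. They are shown because 2 of them departed most from the other members over the leukocyte classes. The sequences below are RefSeq windows of GRCm38.p6, all on the minus strand, read 5′ to 3′ and cut so that they end before or at the start of transcription. Capitals mark matches on either strand to CCAAT, to the NRF1 core GCATGCGC or to the estrogen-related receptor element TCAAGGTCA. The stretch of Atp5g1 runs from chr11:96075671-96075881, that of Atp5g2 from chr15:102671070-102671099 and that of Atp5g3 from chr2:73911327-73911576.
Atp5g1: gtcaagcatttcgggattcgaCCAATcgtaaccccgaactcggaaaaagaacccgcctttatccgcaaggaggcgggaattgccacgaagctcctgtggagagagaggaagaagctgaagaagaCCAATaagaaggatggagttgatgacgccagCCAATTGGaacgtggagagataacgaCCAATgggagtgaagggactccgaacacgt
Atp5g2: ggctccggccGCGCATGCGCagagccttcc
Atp5g3: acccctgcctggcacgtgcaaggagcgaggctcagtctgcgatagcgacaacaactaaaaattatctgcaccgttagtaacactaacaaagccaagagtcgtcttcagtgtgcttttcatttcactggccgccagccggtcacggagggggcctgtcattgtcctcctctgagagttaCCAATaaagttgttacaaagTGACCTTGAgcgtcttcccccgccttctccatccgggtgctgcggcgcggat

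The Atp5g1 stretch, from -250 to -40 of the start, held 5 matches to CCAAT, the box bound by NF-Y. The Atp5g2 stretch, from -52 to -23, held the NRF1 core on both strands in overlap, which makes 2 matches. It was kept to 30 bases because another annotated transcript of the gene starts upstream of it. The Atp5g3 stretch, from -250 to -1, held CCAAT at -72 and, on the other strand, the estrogen-related receptor element at -52. NRF1 and the estrogen-related receptors are known regulators of respiratory genes. A match is a description of letters and not of binding.

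Promoter windows (250 bases before to 50 after the start) were at hand for 67 of the 84 nuclear members. Of these 67 members, 10 (14.9%) held the NRF1 core, against 3.05% of the 27025 genes with a window, among them Atp5g2, Cox6a1, Sdhb, Uqcrc1 and Uqcr11. AAGATGGC, the YY1 core, was found in 9 members (13.4%, all genes 3.19%), among them Ndufa3, Ndufa9, Ndufs4 and Ndufs7. ACTTCCGG, an ETS core as bound by GABP, was found in 5 members (7.46%, all genes 4.31%), and the estrogen-related receptor element in 2, Atp5g3 and Sdhd (2.99%, all genes 0.466%). CCAAT was about as common in members (44.8%) as in all genes (41.1%), and TATAAA was found in 11.9% and 15.7%. The median GC content of the windows was 57.3% in members and 52.8% in all genes, and its part in the motif shares was not tested.

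The nuclear part differed by over 3-fold between leukocyte classes. Neutrophil-like cells were lowest among named classes of over 50 cells per library, with 0.818% of nuclear-encoded UMIs in the control and 0.912% in the AdipoΔ/Δ library. Plasma cell-like cells were near them, with 0.942% and 0.765%, from 14 and 8 barcodes only. Resident macrophage-like (1.70% and 1.82%), B cell-like (1.79% and 1.83%), matrix macrophage-like (1.79% and 2.01%), T cell-like (1.89% and 2.06%) and Ly6C low monocyte-like cells (1.93% and 1.80%) formed a middle group. NK cell-like (2.22% and 2.26%), dendritic cell-like (2.25% and 2.42%) and Ly6C high monocyte-like cells (2.52% and 2.49%) were higher. Lipid-associated macrophage-like cells (2.52% and 2.82%) and dividing cells (2.89% and 2.69%) were at the top.

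**Figure D1:**
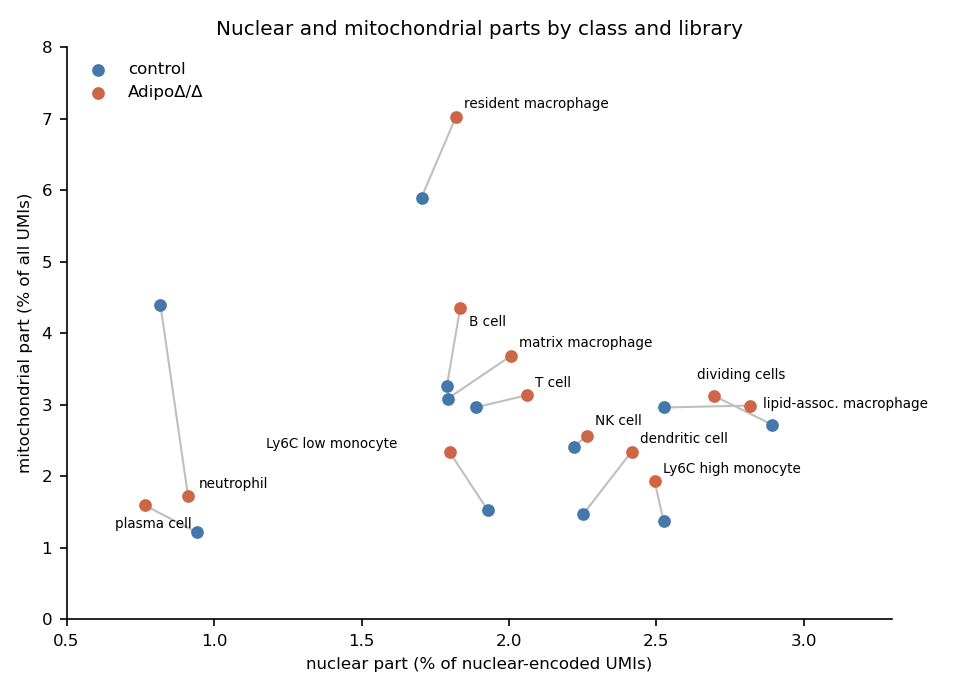
Nuclear part (percent of nuclear-encoded UMIs) on the x axis, which starts at 0.5, against the mitochondrial part (percent of all UMIs) on the y axis, with 1 point per named class and library and a line joining the libraries of a class. Neutrophil-like cells lie at the left at 0.818% and 0.912%, and resident macrophage-like cells at the top at 5.89% and 7.03%.

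Of 73 nuclear members with at least 500 UMIs in each library, 41 of the control and 31 of the AdipoΔ/Δ library had their highest level of all 14 classes and clusters compared in dividing cells, and 16 and 12 in Ly6C high monocyte-like cells. These 14 had at least 100000 UMIs in each library, which leaves out lipid-associated macrophage-like cells. Dividing cells had only 19 and 35 barcodes. The same counts were not made over all genes, so whether they are particular to the members is not known. Lowest were neutrophil-like cells for 31 and 33 members, plasma cell-like cells for 19 and 27 and the unnamed cluster led by Grk3 for 22 and 13. In the control library 1 further member had its lowest level in matrix macrophage-like cells. The lowest levels of nearly all members thus fell in these few groups, but no single group held them all. The highest levels were spread over more classes, with dividing cells the most frequent in both libraries.

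The neutrophil-like cluster, with S100a8, S100a9, Retnlg and Lcn2 as leading genes, had 0.324-fold (0.317 to 0.331) the nuclear part of Ly6C high monocyte-like cells in the control and 0.366-fold (0.354 to 0.377) in the AdipoΔ/Δ library. In the control library, all 76 nuclear members with at least 100 UMIs over both classes were at least 20% lower in neutrophil-like cells, beside 53.9% of all 4036 genes that could be compared. In the AdipoΔ/Δ library this held for 71 of 72 members, beside 50.1% of 2398 genes. The members' median ratios were 0.270 and 0.324. The ratios were lowest for Ndufc2 in the control library, with 0.06 (0.03 to 0.09), and for Atp5g1 in the AdipoΔ/Δ library, with 0.03 (0.01 to 0.08). The lower level was shared by complexes I (median 0.246 and 0.310), III (0.267 and 0.292), IV (0.319 and 0.409) and V (0.261 and 0.262).

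Complex II had higher medians, 0.471 over 4 genes and 0.600 over 3, but its genes spread from 0.09 to 0.61 in the control library, single genes of the other complexes lay within this range, and the difference was not tested. Sdha was at 52.3 CPM in neutrophil-like and 87.3 CPM in Ly6C high monocyte-like cells of the control library, a ratio of 0.60 (0.44 to 0.80), and at 79.2 and 75.3 CPM in the AdipoΔ/Δ library, a ratio of 1.05 (0.71 to 1.54). Sdhd, a membrane anchor of the complex, had ratios of 0.61 (0.46 to 0.79) and 0.60 (0.40 to 0.87), and Sdhb 0.34 (0.25 to 0.46) and 0.43 (0.27 to 0.66). Sdhc, the other anchor, was an exception within the complex, with 7 UMIs (5.9 CPM) in neutrophil-like cells against 162 UMIs (62.6 CPM) in Ly6C high monocyte-like cells of the control library, a ratio of 0.09 (0.04 to 0.20), and had too few UMIs to be compared in the AdipoΔ/Δ library. In bulk sums over a class, fewer transcripts per cell and a larger share of other transcripts cannot be told apart. The nuclear members amounted to 25.7 and 25.4 UMIs per neutrophil-like cell and to 170 and 167 UMIs per Ly6C high monocyte-like cell, whose median depths were 2913 and 2617 UMIs and 6672 and 5866.5 UMIs.

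**Figure D2:**
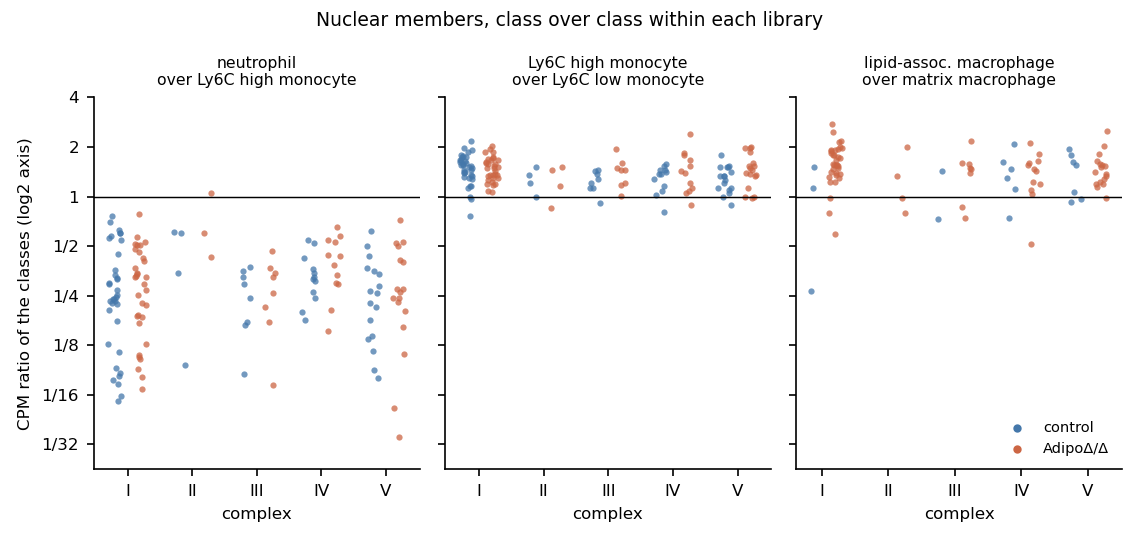
Ratio of CPM between classes for each nuclear member with at least 100 UMIs over both classes, on a log2 y axis, by complex and library, in 3 panels. In the left panel all control points and all but 1 AdipoΔ/Δ point (Sdha, 1.05) lie below 1, and in the other panels most points lie above 1.

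Ly6C high monocytes leave the blood for tissues, and Ly6C low monocytes patrol. In Ly6C high cells 68 of 76 members were higher in the control and 68 of 73 in the AdipoΔ/Δ library. Of all genes compared, 45.4% and 45.9% were higher in Ly6C high cells. The nuclear part was 25239 CPM in Ly6C high and 19281 CPM in Ly6C low monocyte-like cells of the control library, a ratio of 1.31 (1.29 to 1.33), and 24936 and 17991 CPM in the AdipoΔ/Δ library, a ratio of 1.39 (1.36 to 1.41). At least 25% higher in Ly6C high cells were 53 of 76 members in the control (27.2% of all genes compared) and 53 of 73 members in the AdipoΔ/Δ library (28.3%). The intervals of 58 and 55 members lay above 1 and those of 2 and 0 below, a count that was not made over all genes. Cox4i1 had ratios of 1.45 (1.35 to 1.56) and 1.39 (1.27 to 1.53), Sdhb 1.52 (1.21 to 1.93) and 1.50 (1.10 to 2.07), and Ndufc2, an accessory subunit of complex I, 1.74 (1.45 to 2.09) and 1.74 (1.36 to 2.23). Sdha with 1.00 (0.79 to 1.27) and 0.85 (0.61 to 1.17) and Atp5g3 with 0.99 (0.86 to 1.15) and 0.99 (0.82 to 1.21) were the same in both classes within counting error. The median depth was 6672 and 5866.5 UMIs in Ly6C high and 3088 and 2218 UMIs in Ly6C low cells, and its part in the ratio was not tested.

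The 3 macrophage-like subsets were led by Folr2 and Lyve1 (resident), by Lyz1, Retnla and Fcrls (matrix) and by Gpnmb, Cd63, Fabp5 and Trem2 (lipid-associated). Lipid-associated macrophages are known for lipid uptake and lysosomal genes. Their nuclear part was 1.41-fold (1.30 to 1.52) that of matrix cells in the control and 1.40-fold (1.38 to 1.43) in the AdipoΔ/Δ library. In the AdipoΔ/Δ library, 56 of 75 members were at least 25% higher in lipid-associated cells, beside 33.7% of all genes compared. In the control library, where the subset had 14 barcodes with a median of 1321 UMIs, only 18 members could be compared, of which 10 were at least 25% higher, beside 29.6%. The median depth was 1321 and 9147 UMIs in lipid-associated and 3819 and 5446 UMIs in matrix cells. In AdipoΔ/Δ matrix cells the nuclear part was 15097 CPM at 568 to 3550 UMIs and 20999 CPM at 7626 to 41603 UMIs. What depth contributes to the ratios of the subsets was not tested. Complex I had the highest median ratio in the AdipoΔ/Δ library (1.56 over 34 genes) and complex II the lowest (1.15 over 4 genes).

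Among single members of the AdipoΔ/Δ library, Ndufa12, a late-joining accessory subunit of complex I, was 2.76-fold (2.20 to 3.47), Atp5g1 2.49-fold (2.17 to 2.85) and Sdhb 2.01-fold (1.60 to 2.55) as high in lipid-associated as in matrix cells. Cox7a2l went the other way with 0.52 (0.44 to 0.61), as did Ndufa6 with 0.59 (0.52 to 0.68). Ndufa6 also had a ratio of 0.27 (0.05 to 0.80) in the control library, whereas Cox7a2l had too few UMIs there. The higher nuclear part of the lipid-associated subset was thus not uniform over its members.

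Resident macrophage-like cells had a slightly lower nuclear part than matrix cells, 0.95-fold (0.91 to 0.99) and 0.91-fold (0.89 to 0.93). The lipid-associated subset was thus above both others in nuclear members, while the mitochondrial part, described further on, had another order. Ndufa6 was also lower in resident than in matrix cells of the AdipoΔ/Δ library, at 0.55 (0.47 to 0.64), and Sdhc was higher, at 1.58 (1.23 to 2.03).

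The members that departed most from the summed nuclear part over 14 classes and clusters were Atp5g1, Atp5g2, Uqcrc2, Ndufa5, Sdhc and Ndufs3. The measure was the SD over classes of the log2 ratio of the gene to the part, averaged over both libraries. It was 0.83 for Atp5g1 and 0.76 for Atp5g2, beside a median of 0.39 and a lowest value of 0.19 over 73 members. All but Uqcrc2 had their lowest ratio to the part in neutrophil-like cells of both libraries.

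Atp5g1 was highest in lipid-associated macrophage-like cells, at 558 CPM from 17 UMIs in the control and 545 CPM from 684 UMIs in the AdipoΔ/Δ library. It was at 281 and 219 CPM in matrix, at 216 and 241 CPM in resident and at 247 and 285 CPM in Ly6C high monocyte-like cells, which differed less. In neutrophil-like cells it was at 21.9 CPM from 26 UMIs and 9.9 CPM from 5 UMIs. Atp5g2, the most abundant of the 3 subunit c genes, was at 426 and 455 CPM in Ly6C high monocyte-like, 536 and 508 CPM in T cell-like and 33.7 and 23.8 CPM in neutrophil-like cells. Atp5g3 was at 234 and 220 CPM in Ly6C high monocyte-like, 176 and 239 CPM in T cell-like and 27.0 and 35.6 CPM in neutrophil-like cells. In the neutrophil-like cells of both libraries all 3 genes were at or below 35.6 CPM, so that none of them was kept at the level of the other classes there.

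**Figure D3:**
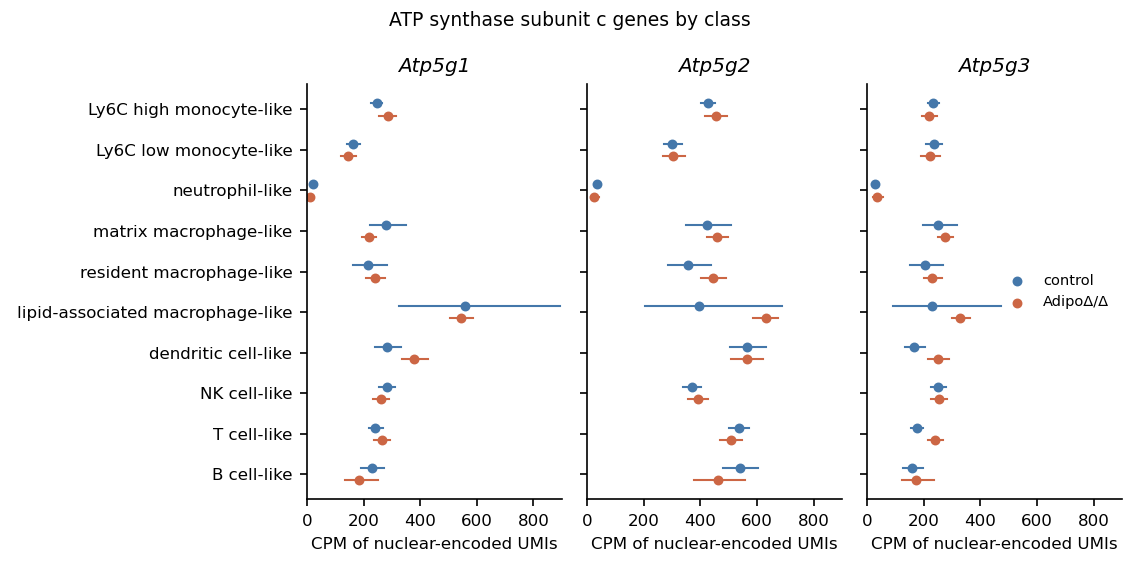
Level of the ATP synthase subunit c genes Atp5g1, Atp5g2 and Atp5g3 (CPM of nuclear-encoded UMIs, x axis) by class and library, with exact Poisson 95% intervals as bars. Neutrophil-like cells are at or below 35.6 CPM for each gene, and Atp5g1 is highest in lipid-associated macrophage-like cells, at 558 and 545 CPM.

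Ndufa5, a subunit of the peripheral arm of complex I, was at 210 CPM in lipid-associated, 131 CPM in resident and 84.9 CPM in matrix macrophage-like cells of the AdipoΔ/Δ library, and at 9.9 CPM in neutrophil-like cells. Sdhc was highest in resident macrophage-like cells among classes of over 50 cells per library, with 106 and 142 CPM, against 62.6 and 67.9 CPM in Ly6C high monocyte-like and 44.8 and 44.8 CPM in T cell-like cells. Ndufs3, a core subunit of complex I, was at 80.0 and 81.0 CPM in Ly6C high monocyte-like, 21.9 and 49.2 CPM in matrix macrophage-like and 6.7 and 13.9 CPM in neutrophil-like cells. Uqcrc2, a core protein of complex III, was at 86.1 and 79.4 CPM in Ly6C high monocyte-like and 27.8 and 25.7 CPM in neutrophil-like cells, and its SD of 1.03 in the control library rested on 0 UMIs in the plasma cell-like barcodes, whose library total allows up to 18.2 CPM.

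The mitochondrial part had another order of classes than the nuclear part. Resident macrophage-like cells were highest among the named classes, with 5.89% (5.80 to 5.99) of all UMIs in the control and 7.03% (6.98 to 7.08) in the AdipoΔ/Δ library. Matrix cells had 3.08% and 3.68%, which makes the resident subset 1.91-fold as high in both libraries (1.86 to 1.97 and 1.89 to 1.93). Resident cells were shallower, with median depths of 1971 and 3821 UMIs against 3819 and 5446 UMIs in matrix cells. In resident cells the mitochondrial part was 11.6% and 13.9% at 512 to 1925 UMIs and 4.48% and 5.48% at 4841 to 23632 UMIs. The 9 adipocyte genes were at 158 and 58.8 CPM of all UMIs in resident and 0 and 4.12 CPM in matrix cells. What depth and adipocyte RNA contribute to the 1.91-fold difference was not tested. Lipid-associated cells, with the highest nuclear part of the subsets, had 2.96% and 2.99%. Ly6C high monocyte-like cells were among the lowest, with 1.38% and 1.93%, although their nuclear part was among the highest. As a result they had 0.553 and 0.788 mitochondrial UMIs per nuclear member UMI, whereas resident macrophage-like cells had 3.68 and 4.15.

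Per barcode, the median mitochondrial share was 5.46% and 7.26% in resident macrophage-like, 2.52% and 3.46% in matrix macrophage-like, 2.29% and 2.35% in NK cell-like and 0.971% and 1.24% in Ly6C high monocyte-like cells. A limit of 2% on these shares leaves 1306 control barcodes (51.6%) and 889 AdipoΔ/Δ barcodes (38.2%), and a limit of 10% leaves 2279 and 2016. The methods of the study name the lower limit but also more retained cells than it leaves here, so how it was applied is not clear. The lower limit bears on classes unequally. Over the limit were 85.9% and 93.5% of resident macrophage-like barcodes, but 17.1% and 29.1% of Ly6C high monocyte-like barcodes. No such limit was used here, since it selects on the members themselves. In monocyte-like and macrophage-like cells the mitochondrial part was higher in shallow barcodes: among macrophage-like barcodes of the AdipoΔ/Δ library it was 9.56% at 512 to 2756 UMIs and 3.43% at 6824 to 41603 UMIs, and the nuclear part was 17101 and 23826 CPM.

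**Figure D4:**
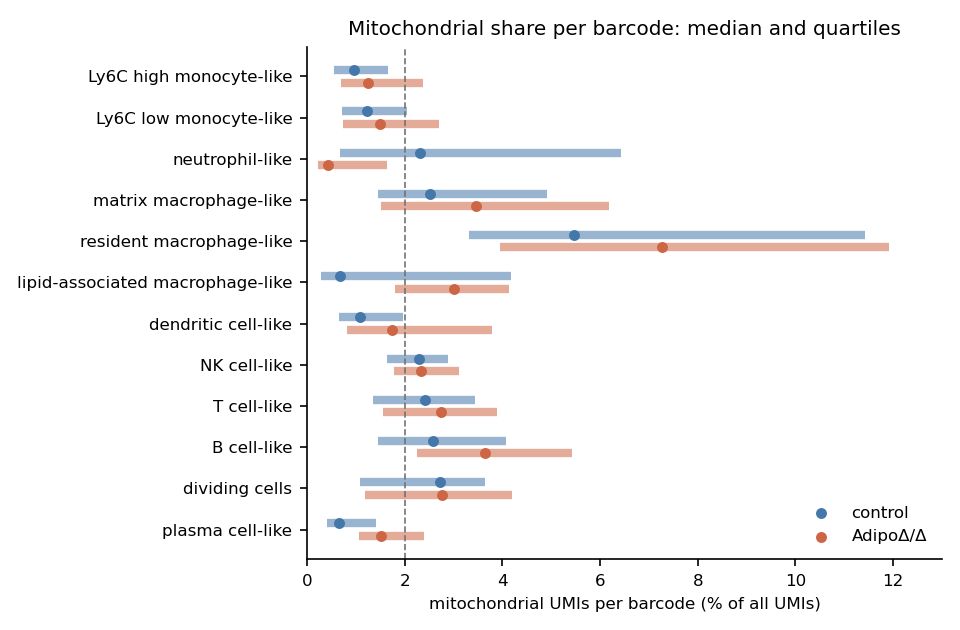
Share of UMIs from the 13 mitochondrial members per barcode (percent, x axis) for each named class and library, with points at the median and bars from the lower to the upper quartile. The dashed line is at 2%, the limit named in the methods, which lies below the medians of resident macrophage-like cells (5.46% and 7.26%) and above those of Ly6C high monocyte-like cells (0.971% and 1.24%).

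The make-up of the mitochondrial part is given over both libraries of the 14 classes and clusters with at least 100000 UMIs in each, and smaller groups can lie outside these ranges. There mt-Co1, the catalytic subunit of complex IV, made up 15.7 to 22.8% of it, mt-Co3 16.8 to 21.8%, mt-Atp6, the proton channel subunit of the ATP synthase, 13.9 to 18.9% and mt-Co2 13.2 to 16.5%. The complex I genes mt-Nd1 (4.24 to 7.003%), mt-Nd2 (3.45 to 5.97%), mt-Nd4 (4.10 to 7.07%) and mt-Nd3 (1.90 to 3.26%) gave less, and mt-Nd5 (0.740 to 1.38%), mt-Nd4l (0.296 to 0.901%), mt-Atp8 (0.193 to 0.524%) and mt-Nd6 (0.02 to 0.13%) least. mt-Nd6 is encoded on the other strand of the mitochondrial genome than the rest. mt-Atp8 overlaps mt-Atp6 and mt-Nd4l overlaps mt-Nd4, so that the split within these pairs is uncertain. mt-Cytb, the subunit of complex III, ranged from 7.07% (6.81 to 7.34) in control Ly6C high monocyte-like to 13.4% (13.2 to 13.7) in control neutrophil-like cells, and its share there was 7.40% and 11.8% in the AdipoΔ/Δ library.

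Over the 12 named classes, the nuclear and mitochondrial parts had a Spearman correlation of -0.43 in the control and 0.22 in the AdipoΔ/Δ library, as a description over classes that share a library. Over barcodes within a class the correlation was from -0.05 to -0.52 in all named classes of at least 50 barcodes but 1, neutrophil-like cells of the AdipoΔ/Δ library, where it was 0.10. The points within a class share depth per barcode, which moved with both parts in monocyte-like and macrophage-like cells.

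Unnamed clusters had the highest mitochondrial parts of all. The cluster led by Fabp4 and Scd1, of 18 and 36 barcodes with medians of 675 and 920.5 UMIs, had 48.7% and 37.7%, and mitochondrial members were themselves among its leading genes, although clustering left them out. The 9 adipocyte genes had 38 and 3 UMIs in it, which is 2483 and 70.0 CPM of all UMIs. Whether its barcodes are leukocytes was not tested. The cluster led by Gm31243 had 15.6% and 11.3% and that led by Grk3, Gm26917 and Neat1 had 11.2% and 13.6%, with nuclear parts of 0.919% and 1.05% and of 0.723% and 0.866%. The cluster led by Aif1 and Cxcl16 differed between libraries, with 1.29% from 67 barcodes in the control and 3.75% from 189 in the AdipoΔ/Δ library, at median depths of 4552 and 1050 UMIs. The cluster led by Cd7 had 3.13% and 2.68%.

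Between the libraries, the nuclear part of macrophage-like cells was 17929 CPM (17577 to 18287) in 158 control barcodes and 22437 CPM (22282 to 22593) in 508 AdipoΔ/Δ barcodes, a ratio of 1.251 (1.23 to 1.28). Of 76 nuclear members with at least 100 UMIs, 40 were at least 25% higher in the AdipoΔ/Δ library and 0 at least 20% lower, the same fold turned over, beside 34.0% of all 4820 genes compared that were higher and 14.3% that were lower. The intervals of 46 members lay above 1 and those of 0 below, a count that was not made over all genes. The median log2 ratio was 0.33 over members and 0.14 over all genes compared. By complex, 18 of 35 genes of complex I were at least 25% higher, 1 of 4 of complex II, 5 of 8 of complex III, 8 of 12 of complex IV and 8 of 17 of complex V. Macrophage-like cells here are the named subsets alone. Left out were the unnamed clusters led by Aif1 (67 and 189 barcodes) and by Grk3 (103 and 174), in which 9 and 8 macrophage markers were detected. Their nuclear ratios were 0.957 (0.930 to 0.985) and 1.20 (1.11 to 1.30).

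The highest ratios in macrophage-like cells were those of Ndufb6 with 1.90 (1.35 to 2.77), Ndufa12 with 1.79 (1.29 to 2.54), Sdhb with 1.76 (1.254 to 2.55), Ndufs5 with 1.67 (1.26 to 2.25) and Uqcrfs1, the Rieske iron-sulfur protein of complex III, with 1.65 (1.19 to 2.36). Ndufb6 and Ndufs5 are accessory subunits of the membrane arm of complex I and were at 63.7 and 121 CPM and at 96.4 and 161 CPM. The lowest were Cox7a2l with 0.89 (0.76 to 1.06), Ndufs1, the largest core subunit of complex I, with 0.90 (0.57 to 1.46), Uqcrh with 0.92 (0.81 to 1.04), Ndufa3 with 0.93 (0.79 to 1.09) and Ndufb10 with 0.95 (0.75 to 1.21), whose intervals all include 1. Sdhb and Ndufa12, high in this comparison, and Cox7a2l, low in it, were also high and low in lipid-associated over matrix cells within the AdipoΔ/Δ library.

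The subsets were mixed differently in the libraries: lipid-associated cells were 14 of 2529 control barcodes (0.554%) and 112 of 2325 AdipoΔ/Δ barcodes (4.82%), matrix cells 52 and 197 and resident cells 92 and 199. Within the subsets the ratio of the nuclear part was 1.12 (1.04 to 1.20) in lipid-associated, 1.12 (1.09 to 1.15) in matrix and 1.07 (1.03 to 1.11) in resident cells, all below the pooled 1.251. With the subset mix of the control library in both, it was 1.10. In barcodes of 2000 to 8000 UMIs alone, it was 1.11 pooled and 0.994 in resident cells, and 20 members were past this limit upwards and 2 downwards. Both alternatives were chosen after the data were seen.

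Monocyte-like cells went the other way with a smaller difference. Their nuclear part was 23339 CPM (23186 to 23493) in 728 control and 22216 CPM (22011 to 22423) in 467 AdipoΔ/Δ barcodes, a ratio of 0.952 (0.941 to 0.963). Ly6C high cells, with the higher nuclear part, were 385 of the control and 182 of the AdipoΔ/Δ barcodes. The ratio with the subset mix of the control library is given in the last section. What the mix contributes to the ratios of single members was not tested. Of 76 members, 0 were at least 25% higher and 3 at least 20% lower, beside 20.8% and 5.09% of all genes compared. Ly6C high cells had a ratio of 0.988 (0.975 to 1.00), with 1 of 76 members past the limit upwards and 2 downwards (all genes 19.0% and 6.30%), and Ly6C low cells one of 0.933 (0.914 to 0.953), with 2 of 71 members higher and 5 lower (22.5% and 7.71%). In the class as a whole, Ndufv1, which binds NADH in complex I, had the lowest ratio with 0.72 (0.54 to 0.95), followed by Cox7b with 0.77 (0.69 to 0.87), Ndufv3 with 0.79 (0.67 to 0.92), Ndufa3 with 0.82 (0.75 to 0.89) and Ndufb2 with 0.84 (0.72 to 0.97). The highest were Atp5a1, the alpha subunit of the ATP synthase, with 1.18 (1.07 to 1.29), Ndufa12 with 1.16 (0.94 to 1.43), Sdhc with 1.12 (0.89 to 1.40), Ndufv2 with 1.12 (0.95 to 1.30) and Ndufa5 with 1.10 (0.91 to 1.32). Macrophage-like and monocyte-like cells thus had their ratios on opposite sides of 1, a difference between classes of the same 2 libraries for which no test was possible.

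**Figure D5:**
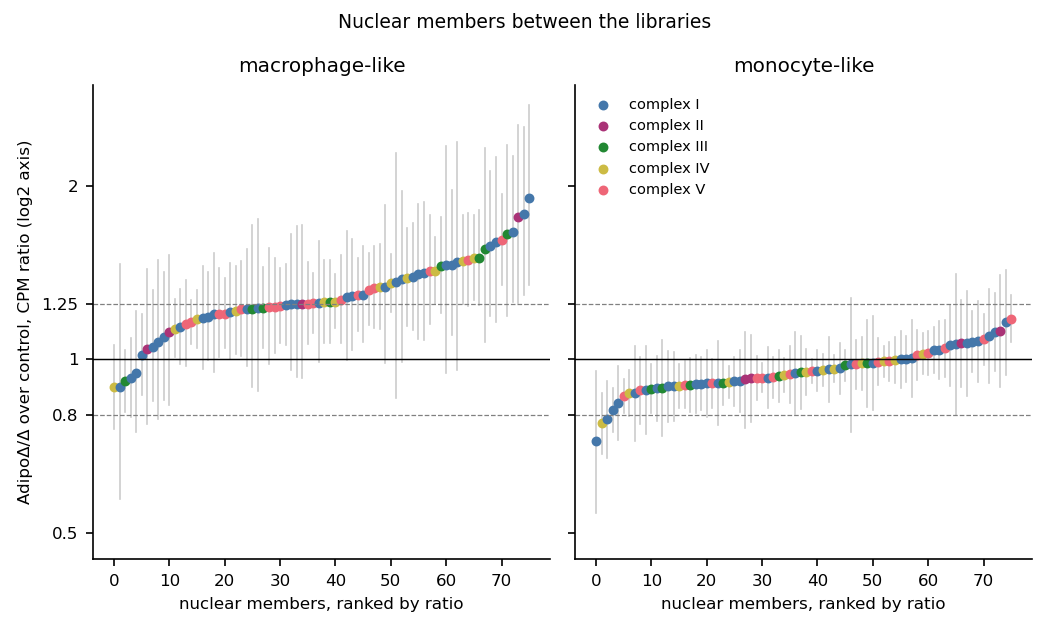
CPM ratio of the AdipoΔ/Δ over the control library (log2 y axis) for the 76 nuclear members with at least 100 UMIs in macrophage-like (left) and monocyte-like cells (right), ranked by ratio and coloured by complex, with 95% counting intervals as bars and dashed lines at 25% higher and 20% lower. In macrophage-like cells 40 points lie above the upper line and 0 below the lower one, and in monocyte-like cells 0 and 3.

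Among the other classes, neutrophil-like cells had a nuclear ratio of 1.11 (1.08 to 1.15), with 11 of 43 members at least 25% higher and 1 at least 20% lower (all genes 37.5% and 5.83%). T cell-like cells had 1.09 (1.07 to 1.11), with 11 of 75 higher and 0 lower (35.2% and 4.29%). NK cell-like cells had 1.02 (1.00 to 1.04), with 3 of 74 higher and 0 lower (15.0% and 5.13%). B cell-like cells had 1.03 (0.989 to 1.06), with 7 of 51 higher and 3 lower (24.2% and 8.84%), and dendritic cell-like cells 1.07 (1.05 to 1.10), with 15 of 68 higher and 3 lower (23.0% and 9.05%). A list of 4 erythroid genes had 10948 and 15 UMIs in B cell-like cells, and its part in their ratio was not tested. In none of these 5 classes was the share of members past the limit upwards above the share over all genes.

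The mitochondrial part was higher in the AdipoΔ/Δ library in most classes and lower in neutrophil-like cells. Monocyte-like cells had 1.42% and 2.09%, a ratio of 1.47 (1.45 to 1.49), with 1.40 in Ly6C high and 1.54 in Ly6C low cells. The ratio was 1.59 (1.55 to 1.63) for dendritic cell-like cells, from 1.47% and 2.34%. It was 1.34 (1.31 to 1.37) for B cell-like, 1.06 for T cell-like and 1.07 for NK cell-like cells. Macrophage-like cells had 4.35% and 4.32%, a ratio of 0.994 (0.981 to 1.01), but within subsets the ratio was 1.19 in resident, 1.20 in matrix and 1.01 in lipid-associated cells, and it was 1.48 pooled in barcodes of 2000 to 8000 UMIs. Within monocyte-like cells, 12 of the 13 genes were higher in the AdipoΔ/Δ library, from 1.35-fold for mt-Nd5 to 1.68-fold for mt-Nd3 among those with a count of over 100 in each library, and mt-Atp8 had 0.78 (0.61 to 0.99). In the barcodes of at most 2% mitochondrial UMIs the ratio in monocyte-like cells was 1.02.

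Neutrophil-like cells had 4.40% (4.36 to 4.44) in 377 control and 1.72% (1.68 to 1.75) in 181 AdipoΔ/Δ barcodes, a ratio of 0.390 (0.382 to 0.399). The medians per barcode were 2.32% and 0.427%, and 16.7% and 4.97% of barcodes were over 10%. At a resolution of 2.0, neutrophil-like cells formed a cluster led by Retnlg (191 and 115 barcodes) and another led by Lcn2 (186 and 66 barcodes). The median mitochondrial shares of these clusters over both libraries were 0.811% and 2.57%, and the part of their mix in the ratio was not tested. All 13 genes were lower in the AdipoΔ/Δ library, from 0.250-fold for mt-Nd4l to 0.491-fold for mt-Nd3, with mt-Co1 at 0.421 (0.3997 to 0.443) and mt-Cytb at 0.343 (0.321 to 0.366). In UMIs per barcode this was 145 and 48.8 mitochondrial UMIs, at 25.7 and 25.4 UMIs of the nuclear members. At 548 to 2126 UMIs per barcode the mitochondrial part was 5.82% and 2.58%, and at 3475 to 22169 UMIs it was 3.84% and 1.42%, so the libraries differed at each depth. Of the 9 adipocyte genes, 3 and 4 had a UMI in neutrophil-like cells, with 108 and 32 UMIs in sum (87.1 and 62.3 CPM of all UMIs), and their part in the result was not tested. As a result macrophage-like cells had 0.988-fold the mitochondrial part of neutrophil-like cells in the control but 2.52-fold in the AdipoΔ/Δ library, whereas their nuclear part was 2.19-fold and 2.46-fold, with 51 of 56 members (36.9% of all genes) and 73 of 76 members (59.3%) at least 25% higher.

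Genes that work with the chain were counted from fixed lists in macrophage-like cells, where a gene needed 100 UMIs over both libraries and where 34.0% of all genes were at least 25% higher and 14.3% at least 20% lower. Of the carriers, uncouplers and porins, 6 of 7 compared genes were at least 25% higher in the AdipoΔ/Δ library and 0 lower, among them Vdac2, a pore of the outer membrane, with 2.02 (1.60 to 2.60), Slc25a3, the phosphate carrier, with 1.63 (1.38 to 1.94), and Ucp2, an uncoupling protein of leukocytes, with 860 and 1160 CPM and a ratio of 1.35 (1.23 to 1.49). Of the electron carriers and subunits outside the rule, 3 of 5 were higher: Ndufab1, the acyl carrier protein of complex I, with 1.64 (1.19 to 2.30), Cycs, which is cytochrome c, with 1.32 (1.01 to 1.76) and Etfb with 1.28 (1.00 to 1.66). Of the tricarboxylic acid cycle, 6 of 13 were higher and 0 lower, among them Mdh2, malate dehydrogenase, with 1.64 (1.23 to 2.21) and Idh3a with 2.56 (1.26 to 6.04) from 8 and 133 UMIs, a count near the share over all genes. Atpif1, the inhibitor of the ATP synthase, was at 362 and 542 CPM, a ratio of 1.50 (1.29 to 1.74), and was the only 1 of its 4-gene list that could be compared.

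Assembly and regulatory genes were less one-sided. Of the assembly factors of complexes III and IV, 1 of 11 was higher, and of those of complex I both that could be compared, out of 14 listed. Of genes for mitochondrial gene expression, 1 of 2 was higher, Mrpl12 with 1.96 (1.29 to 3.11). Of the nuclear regulators, 1 of 4 was higher and 1 lower, Gabpa with 1.36 (0.73 to 2.81) and Nrf1 with 0.70 (0.43 to 1.20), whose intervals include 1. In monocyte-like cells, 0 of 7 carriers, 0 of 5 electron carriers and 3 of 13 cycle genes were higher, beside 20.8% of all genes, which is about the share of the cycle genes. Of the small lists, 2 of 5 genes for mitochondrial gene expression and 2 of 4 nuclear regulators were higher there. Among assembly factors, 0 of 3 of complex I and 0 of 12 of complexes III and IV were higher, and 0 of 2 in the list with the ATP synthase inhibitor.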

How the data were processed

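CD45+ BAT cells of each condition gave 1 single-cell library. The deposited values are raw UMI counts by gene and barcode, which the authors made with Cell Ranger (4.0.0 in the file headers) on mm10 and did not normalize. Barcodes with at least 200 detected genes were kept, with no limit on mitochondrial UMIs. SCTransform 0.4.2 was run on each library with the mitochondrial share as a covariate to regress, followed by anchor integration (Seurat 5.3.0, R 4.3.3). Of 2000 selected features, 1987 that were no member and no mitochondrial gene were used, with 20 principal components and a resolution of 1.0. Each cluster was named from marker lists. The thresholds, all required, were set after the data were seen: 3 or more markers found in 10% or more of the cells, 2 or more among the leading genes and a score from 0.5 up. A macrophage subset also needed 3 or more general macrophage markers. A T cell-like cluster also held genes of innate lymphoid cells (Arg1, Gata3). Scrublet in Scanpy 1.11.5 at an expected rate of 0.02 marked 8 control and 5 AdipoΔ/Δ barcodes, which were kept and for which the caller may not have worked.

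UMIs were summed per class and library, and ratios and intervals were computed with SciPy 1.17.1 and checked on simulated data. Genes needed at least 100 UMIs over both groups to be compared, and counts of genes used a limit of 25% higher or, the same fold turned over, 20% lower. The genes named are all mitochondrial members, the 2 most abundant nuclear members per complex, members with tissue isoforms, the 5 highest and 5 lowest ratios in macrophage-like and monocyte-like cells, the 6 that departed most from the nuclear part, and members of the pathway lists with a stated role. Any other gene whose value is printed was picked with its value in view. The members and lists were chosen with earlier results of these data known. Gene positions are from GENCODE for GRCm38, in which all 97 identifiers were found, 96 with the same symbol (Atp5md differs). Promoter windows are from RefSeq for GRCm38.p6. The paper gives a younger age than the labels, whose age is used here. Reads, surface proteins and flow cytometry were not analysed here.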

Additional observations from a re-analysis of the deposited data

Results flagged for a closer look

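Flagged were the named classes of at least 50 barcodes per library in which the AdipoΔ/Δ over control ratio of a part had a counting interval that excluded 1. Unnamed clusters were left out. Among them, that led by Aif1 had ratios of 0.957 for the nuclear and 2.90 for the mitochondrial part, and that led by Grk3 1.20 and 1.22. With 1 library per condition, neither these ratios nor the differences between classes could be tested. For the nuclear part, Ly6C low monocyte-like cells had a ratio of 0.933, NK cell-like 1.02, T cell-like 1.09, dendritic cell-like 1.07, matrix macrophage-like 1.12, neutrophil-like 1.11 and resident macrophage-like cells 1.07. Ly6C low monocyte-like cells were thus the only class of these below 1. For the mitochondrial part, neutrophil-like cells had a ratio of 0.390, whereas all other flagged classes were above 1. B cell-like cells had 1.34, Ly6C high monocyte-like 1.40, Ly6C low monocyte-like 1.54, dendritic cell-like 1.59, matrix macrophage-like 1.20, resident macrophage-like 1.19, NK cell-like 1.07 and T cell-like cells 1.06.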

How the results depend on the processing

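No paired analysis was possible because each condition had 1 library. Depth limits the lipid-associated subset of the control library, with 14 barcodes at a median of 1321 UMIs, and intervals cover counting error only. The values below are AdipoΔ/Δ over control ratios unless stated, and those listed moved past their counting interval or changed side of 1. The causes were not tested. In barcodes of at most 2% mitochondrial UMIs, which selects on the members, the nuclear ratio was 1.13 in macrophage-like and 0.983 in monocyte-like cells and the mitochondrial ratio 1.27 and 1.02. There the mitochondrial ratio changed side in B cell-like (0.922), Ly6C low monocyte-like (0.995) and NK cell-like cells (0.964), and the nuclear ratio in NK cell-like (0.993) and resident macrophage-like cells (0.719). The last value rests on few barcodes, since 79 of 92 control and 186 of 199 AdipoΔ/Δ resident macrophage-like barcodes were over the limit. At most 10% gave mitochondrial ratios of 1.07 in macrophage-like and 1.30 in monocyte-like cells. Averaging over cells gave nuclear ratios of 1.18 and 0.918 and, in monocyte-like cells, a mitochondrial ratio of 1.39. In barcodes of 2000 to 8000 UMIs, added after seeing the data, the nuclear ratios were 1.11 and 0.983 and 0.994 in resident macrophage-like cells, and the mitochondrial ratios 1.48 and 1.60. With the subset mix of the control library, also added later, the nuclear ratios were 1.10 and 0.974 and the mitochondrial ratios 1.19 and 1.45. Without ribosomal protein genes the mitochondrial ratio in macrophage-like cells was 1.01. With at least 500 detected genes it was 1.10, and 1.51 in monocyte-like cells. A resolution of 2.0 gave mitochondrial ratios of 1.02 and 1.44 and a nuclear ratio of 0.995 in NK cell-like cells, and no integration gave 0.981 and 1.22 and a nuclear ratio of 0.967 in T cell-like cells. The count of nuclear members past the limit in either direction in macrophage-like cells (40 higher, 0 lower) was 22 in barcodes of 2000 to 8000 UMIs (20 higher, 2 lower) and 9 at 1.5-fold.

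For macrophage-like over neutrophil-like cells, the nuclear ratio (2.19 in the control, 2.46 in the AdipoΔ/Δ library) was 2.48 and 2.80 without ribosomal protein genes, 2.67 and 2.83 at most 2%, 2.11 and 2.18 as a mean over cells, 2.08 and 2.03 in barcodes of 2000 to 8000 UMIs and 2.23 in the AdipoΔ/Δ library without integration. The mitochondrial ratio (0.988 and 2.52) was 1.11 and 2.84 without ribosomal protein genes, 1.40 and 3.02 at most 10%, 1.36 and 2.86 at most 2%, 1.26 and 3.14 as a mean over cells and 0.920 and 3.99 in barcodes of 2000 to 8000 UMIs. It was 0.906 with at least 500 detected genes and 1.08 without integration in the control, and 2.59 with nuclear-encoded UMIs as the denominator in the AdipoΔ/Δ library. In the control library the side of 1 thus depended on the setting.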
